A study of Mus musculus with 15 samples.

Results

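The long noncoding RNAs described here were the 200 intergenic transcripts with the most reads in these livers. They were taken from 1686 genes that the deposited tables class as long intergenic noncoding RNA, with H19 and Meg3 left out, among 26839 genes in all. They were chosen by a single measured value, the raw counts summed over all 15 libraries. A low-ranked member can therefore owe its place to a group in which it was high. Those counts ran from 238277 for Malat1 down to 330, 329 and 327 for Gm17767, D630033O11Rik and Gm11827 at the end of the ranking. The next genes, Gm10451, Gm45253 and AC154577.1, had 326, 326 and 324 counts and were not included. All 200 were present in each of the 3 deposited tables. Antisense, processed-transcript and unclassified noncoding genes, which the files list under other classes, were not considered.

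Livers came from male C57BL/6J mice, with 3 libraries per group. The NASH groups ate a FPC diet with sugar water for 16 weeks, a regimen used to produce non-alcoholic steatohepatitis. They carried an AAV8 vector for Activin A or for GFP under the thyroxine binding globulin (TBG) promoter, which is liver-specific per the labels, or an AAV8-H1 vector for a hairpin RNA, either aimed at Gpnmb or scrambled. The chow GFP group carried the GFP vector and ate standard chow for 16 weeks. Thus every liver had received AAV8, and no group was without a vector. The H1 promoter is used in many cell types, so the hairpin is not tied to hepatocytes by its promoter. The labels do not say whether the libraries of a group are separate animals, and the p-values reflect a spread between libraries that could be technical.

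Long noncoding RNAs are transcribed and often spliced and polyadenylated like messenger RNAs, but carry no long open reading frame. Some act in the nucleus as scaffolds, such as Malat1 in speckles and Neat1 in paraspeckles. Others bind proteins or microRNAs in the cytoplasm, and some are precursors whose introns or exons release microRNAs or small nucleolar RNAs (snoRNAs). Many have no known role, and in many cases they are transcribed from the same promoter region as a neighbouring protein-coding gene. In liver, several are restricted to hepatocytes, and others belong to macrophages or other non-parenchymal cells.

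Sequences are shown for the members on which the results below turn. The promoter windows, from RefSeq on GRCm38.p6, run from 250 bases before to 50 bases after the annotated start, 5′ to 3′ on the strand of the gene. Gm33447 had the highest diet log2 fold change and Gm36264 the lowest. C730036E19Rik fell in both the diet and the hairpin comparison, BC049987 fell most with the hairpin, Snhg18 shares its start region with Sema5a, and B930025P03Rik lies beside Irs2. Capitals mark TTCNNNGAA in Gm33447 (chr13:97375930-97376229, plus strand) and CCAAT, on either strand, in Gm36264 (chr13:9076325-9076624, minus strand) and B930025P03Rik (chr8:10882405-10882704, minus strand). They mark the first 50 transcribed bases of C730036E19Rik (chr1:151137784-151138083, plus strand) and TATAAA in BC049987 (chr9:44672211-44672510, minus strand). In Snhg18 (chr15:32244613-32244912, minus strand) they mark the 147 bases between its start and that of Sema5a on the other strand.
Gm33447: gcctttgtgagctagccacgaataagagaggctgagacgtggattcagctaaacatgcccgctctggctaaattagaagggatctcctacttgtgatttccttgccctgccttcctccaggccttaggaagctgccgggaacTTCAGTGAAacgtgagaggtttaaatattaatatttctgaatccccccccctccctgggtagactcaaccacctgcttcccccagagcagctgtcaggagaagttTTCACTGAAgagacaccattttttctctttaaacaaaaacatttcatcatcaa
Gm36264: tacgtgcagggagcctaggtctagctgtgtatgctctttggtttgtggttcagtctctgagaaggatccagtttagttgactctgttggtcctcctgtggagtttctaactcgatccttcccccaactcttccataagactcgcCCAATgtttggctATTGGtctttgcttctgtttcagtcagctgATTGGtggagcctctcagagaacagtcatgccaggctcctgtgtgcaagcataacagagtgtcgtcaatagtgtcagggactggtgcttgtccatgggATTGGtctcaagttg
C730036E19Rik: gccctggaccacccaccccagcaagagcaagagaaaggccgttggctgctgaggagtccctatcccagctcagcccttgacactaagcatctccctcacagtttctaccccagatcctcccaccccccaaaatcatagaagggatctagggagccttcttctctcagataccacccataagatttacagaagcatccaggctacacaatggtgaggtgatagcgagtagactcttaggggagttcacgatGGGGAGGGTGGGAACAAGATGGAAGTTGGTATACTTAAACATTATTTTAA
BC049987: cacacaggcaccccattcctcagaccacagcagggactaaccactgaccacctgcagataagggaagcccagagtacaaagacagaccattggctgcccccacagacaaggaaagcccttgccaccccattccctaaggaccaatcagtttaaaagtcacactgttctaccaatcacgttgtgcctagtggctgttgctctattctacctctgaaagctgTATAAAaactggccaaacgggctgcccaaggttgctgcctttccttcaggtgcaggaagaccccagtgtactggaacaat
Snhg18: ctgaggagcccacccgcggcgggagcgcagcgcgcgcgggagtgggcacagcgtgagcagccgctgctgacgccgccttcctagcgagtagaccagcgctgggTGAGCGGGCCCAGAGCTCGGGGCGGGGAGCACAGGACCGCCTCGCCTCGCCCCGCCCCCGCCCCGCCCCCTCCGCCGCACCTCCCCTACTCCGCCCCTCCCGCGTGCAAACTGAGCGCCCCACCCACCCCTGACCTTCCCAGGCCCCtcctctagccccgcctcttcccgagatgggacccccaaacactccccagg
B930025P03Rik: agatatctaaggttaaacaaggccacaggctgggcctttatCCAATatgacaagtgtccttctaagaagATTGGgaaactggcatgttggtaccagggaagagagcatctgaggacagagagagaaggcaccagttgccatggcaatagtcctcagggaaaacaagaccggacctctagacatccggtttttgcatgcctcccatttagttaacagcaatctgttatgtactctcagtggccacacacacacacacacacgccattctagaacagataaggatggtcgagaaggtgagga

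The letters of 4 motifs were searched on both strands in the windows of the 68 members whose RefSeq start lay within 100 bases of the start in the deposited tables. TATAAA was in 8 of them (11.8%), against 14.2% of the windows of 27025 genes. CCAAT was in 25 (36.8%, against 37.9%), GGGCGG in 25 (36.8%, against 35.9%) and TTCNNNGAA in 6 (8.82%, against 8.47%). The members' windows thus held these letters about as often as those of all genes. The C730036E19Rik window held none of them, the Snhg18 window held 5 matches to GGGCGG, and the BC049987 window held 3 matches to CCAAT beside its TATAAA.

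Mir17hg, the precursor of the miR-17-92 cluster, is the member that holds the most microRNA genes. The guide strands of its 6 microRNAs, from RefSeq on GRCm38.p6, are given 5′ to 3′ with the seed, bases 2 to 8, in capitals. miR-17-5p and miR-20a-5p share a seed, and so do miR-19a-3p and miR-19b-3p, so the 6 carry 4 different seeds.
mmu-miR-17-5p: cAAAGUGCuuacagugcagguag
mmu-miR-20a-5p: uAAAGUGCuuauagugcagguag
mmu-miR-18a-5p: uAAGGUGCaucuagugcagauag
mmu-miR-19a-3p: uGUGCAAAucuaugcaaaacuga
mmu-miR-19b-3p: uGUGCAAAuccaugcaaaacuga
mmu-miR-92a-3p: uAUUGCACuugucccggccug

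The 200 members held 765344 counts, 92.5% of the counts of all 1686 genes. Malat1 alone held 31.1% of them, Malat1 and Neat1 together 43.7%, and the 12 highest 68.8%. The lower 100 members held 6.89%, and 84 members had at least 1000 counts. Per library the members took 0.213% to 0.327% of all counts, and both extremes were chow GFP libraries. Levels are in counts per 1e6 counts of the library (CPM), with library sizes scaled by the trimmed mean of M values (TMM). Per kilobase of gene length the order changed. Malat1 stayed first at 120 CPM per kb averaged over the libraries, followed by Gm10076 (81.6), AW112010 (58.6), Gm26917 (31.0), 1810058I24Rik (27.2) and C730036E19Rik (25.9).

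**Figure D1:**
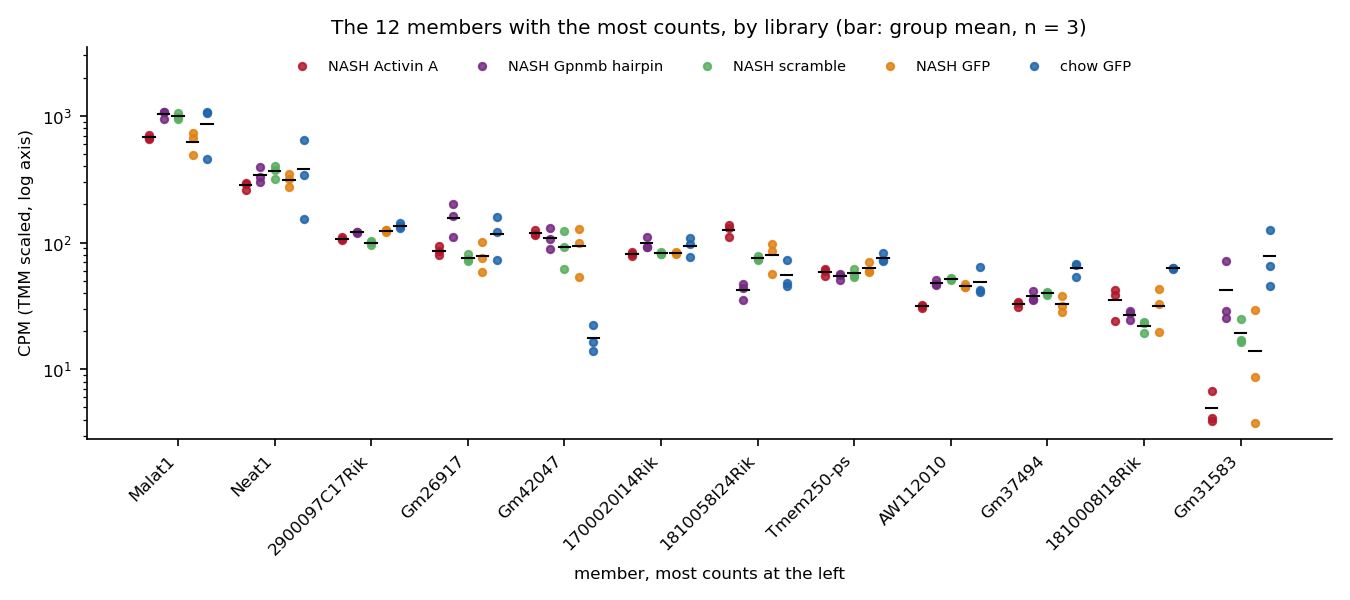
CPM on a log axis for each of the 12 members with the most counts, 1 point per library and a bar at each group mean (n = 3). Malat1 and Neat1 vary most among chow GFP libraries, Gm42047 is lower in all 3 chow GFP libraries than elsewhere, and AW112010 is lower in all 3 NASH Activin A libraries than elsewhere.

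Gene models ran from 317 to 20771 bases, with a median of 2177, against 1298.5 for the other 1486 long noncoding genes. A protein-coding gene overlapped 29 members (14.5%, against 15.4% of the others), 24 of them on the opposite strand. A further 35 members (17.5%, against 11.7%) lay head to head within 5000 bases of one. Inside 6 members lay 12 microRNA genes, and inside 8 lay 11 snoRNA genes. RefSeq entries matched 145 members by symbol or synonym. RefSeq classed 135 of these as long noncoding, 8 as protein-coding, 1 as a pseudogene and 1 as a transcribed pseudogene. Among the protein-coding ones, 1810058I24Rik is Stmp1, a mitochondrial micropeptide gene. D930016D06Rik is listed as a synonym of Thoc2l, and 4930516B21Rik as a synonym of Acvr2b, an activin receptor. Both of these matches rest on a synonym and overlapping positions. The reads of D930016D06Rik may therefore not be those of Thoc2l, nor the reads of 4930516B21Rik those of Acvr2b. Gm10076 is the pseudogene, so its reads may be shared with a near-identical copy. The strand setting of the counting is not stated, so values of members that overlap a gene on the other strand are uncertain.

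Library totals ran from 15276879 to 23467867 counts. Gpnmb stood at 1.45, 1.26 and 3.30 CPM in NASH Gpnmb hairpin livers, against 26.2, 36.4 and 32.8 CPM in NASH scramble livers. Inhba, which encodes the Activin A subunit, stood at 25.7, 24.04 and 25.3 CPM in NASH Activin A livers, against 8.03, 7.86 and 8.13 CPM in NASH GFP livers. Among chow GFP libraries, replicate 3 stood apart, with Malat1 at 17.5% of member counts, against 23.6% to 37.0% in the other 14 libraries. NASH GFP replicate 3 stood apart in the comparison of the control vectors described below. Hepatocyte markers were abundant in every library, with a summed level of 58816 to 120865 CPM over 10 genes.

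Over all 5 groups, 99 of the 200 members (49.5%) differed between groups (edgeR quasi-likelihood F test, Benjamini-Hochberg adjusted p under 0.05), against 44.9% of all genes tested. Of these 99, the highest group mean was in chow GFP for 48, NASH Gpnmb hairpin for 26, NASH scramble for 12, NASH Activin A for 7 and NASH GFP for 6. The lowest group mean was in NASH Activin A for 26 and in NASH GFP and chow GFP for 24 each. It was in NASH scramble for 16 and in NASH Gpnmb hairpin for 9. The order of groups was not counted over all genes, so these counts do not set the members apart from other genes. Malat1 passed this test with an adjusted p of 0.0452, while Neat1 did not (adjusted p = 0.698). In the 3 deposited comparisons together, 78 members (39%) were called in at least 1, against 33.5% of the 15290 genes tested in any of them, and 122 members were called in none.

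**Figure D2:**
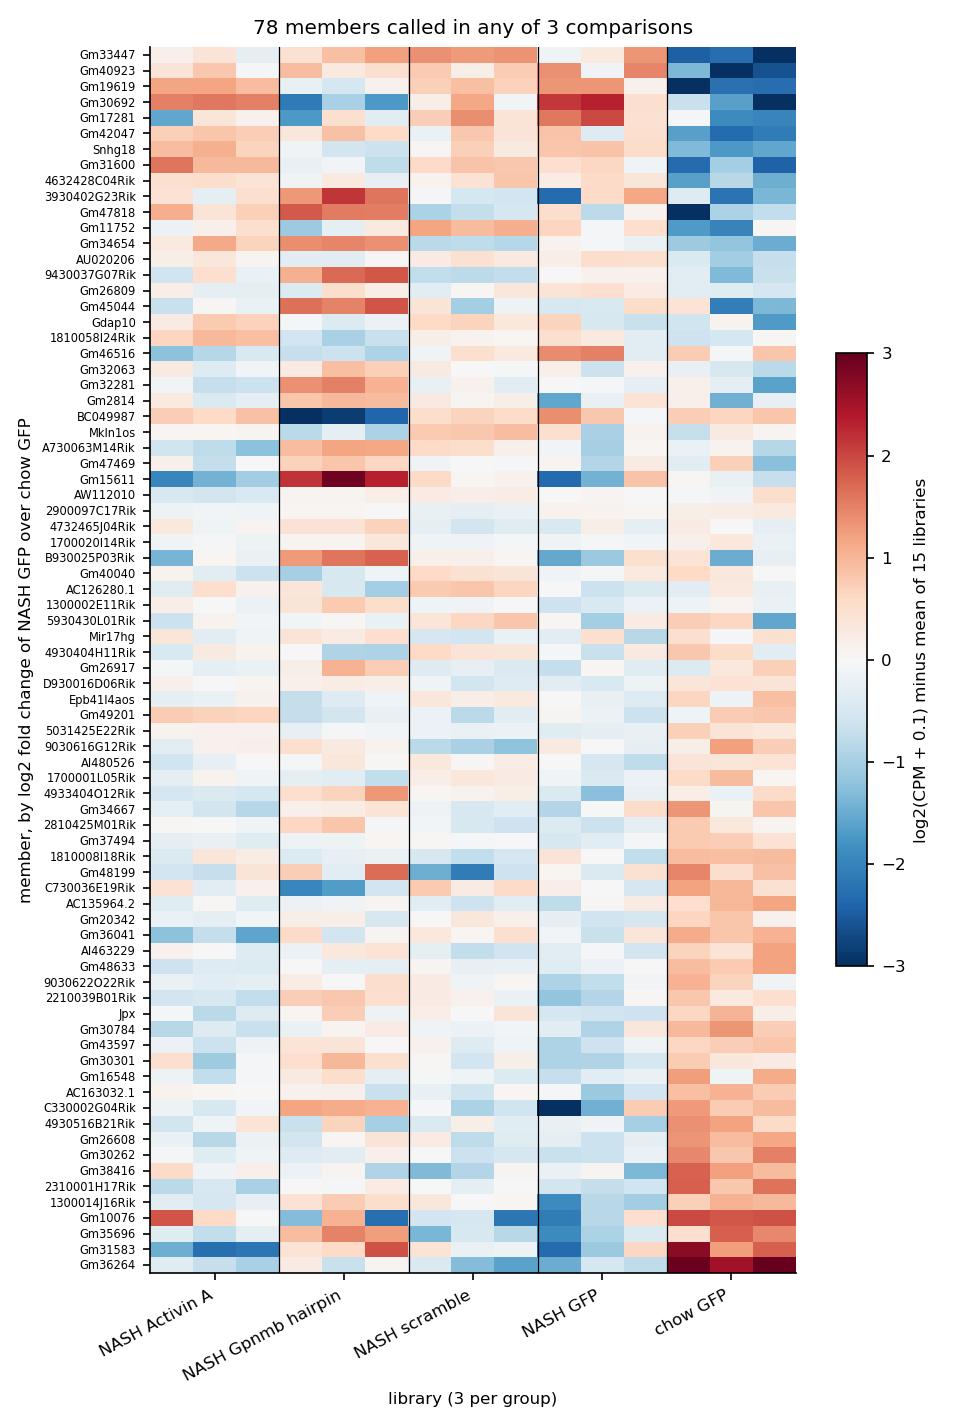
Each row is 1 of the 78 members called in any of the 3 comparisons, ordered by the diet log2 fold change, and each column is 1 library. Colour is log2(CPM + 0.1) minus the mean of the 15 libraries, on a scale that ends at 3 in both directions. Rows at the top are blue and rows at the bottom red in the chow GFP libraries, while the hairpin libraries stand apart in rows such as BC049987 and Gm15611.

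In the diet comparison, NASH GFP livers against chow GFP livers, the members were more often lower than higher. Of 200 tested, 28 were called lower and 12 higher, so 20% were called, against 17% of the 14388 genes tested. By direction, 14.0% of members were called lower, against 5.82% of all genes, and 6.00% higher, against 11.2%. Their median log2 fold change was -0.36, against -0.01 over all genes. Groups did not overlap for 80 members (40%), against 35.5% of all genes. The summed level was 2303 ± 204 CPM in NASH GFP livers and 3041 ± 491 CPM in chow GFP livers (SD, n = 3 each), and the exact two-sided permutation p was 0.1, the smallest that 3 against 3 allows. The split of calls by direction rested on the scaling: without TMM factors 16 were called higher and 13 lower. The median of all genes then moved to 0.24 and that of the members to -0.12. Of called members 55.2% were higher without TMM factors, against 86.8% of all called genes. With TMM factors these shares were 30% and 65.7%, so members had the lower share in both settings. Calls lower numbered 13 without NASH GFP replicate 1, 11 without NASH GFP replicate 2 and 13 without chow GFP replicate 1, and 16 of the 40 calls were kept whichever library was left out.

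Among members lower on the diet, Gm36264 differed most. It stood at 0.221, 0.527 and 0.431 CPM in NASH GFP livers, against 6.81, 5.07 and 7.38 CPM in chow GFP livers. Its log2 fold change was -3.98 ± 0.39 (SE, edgeR adjusted p = 2.24e-04), and its level in the other NASH groups averaged 0.345 to 0.769 CPM. The chow GFP livers were thus alone in having more than 1 CPM of it. Gm10076, the RefSeq pseudogene, stood at 4.46, 10.9 and 27.7 CPM in NASH GFP livers, against 77.8, 71.5 and 73.7 CPM in chow GFP livers (log2 fold change -2.34 ± 0.48, adjusted p = 0.00883). The NASH GFP libraries spread widely for it and none reached the chow GFP values, but 1 NASH Activin A library, at 72.1 CPM, lay among them. 2310001H17Rik, a neighbour of the gene for the natural killer receptor ligand Clec2d, stood at 6.53, 5.80 and 6.35 CPM in NASH GFP livers, against 33.4, 16.8 and 29.7 CPM in chow GFP livers (-2.06 ± 0.25, adjusted p = 5.47e-04). The log2 fold change was -2.36 ± 0.44 for Gm35696, -1.74 ± 0.22 for Gm30262 and -2.31 ± 0.48 for 1300014J16Rik, all with groups that did not overlap. Gm48633 (-1.10 ± 0.17) and Gm37494 (-0.91 ± 0.17) were among the more abundant members that fell. All 8 members named here kept their calls whichever library was left out.

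Gm31583, ranked 12 by counts, was lower in NASH GFP livers, at 3.75, 8.72 and 29.2 CPM, against 125, 45.4 and 65.7 CPM in chow GFP livers (log2 fold change -2.48 ± 0.62, adjusted p = 0.0211). The groups did not overlap, but both spread widely, with means of 13.9 ± 13.5 CPM in NASH GFP livers and 78.8 ± 41.5 CPM in chow GFP livers (SD, n = 3 each). Its call was lost without NASH GFP replicate 2 (adjusted p = 0.0745) and without chow GFP replicate 1 (0.0783). The liver-enriched C730036E19Rik, called lncLSTR in RefSeq and described in mice as a regulator of plasma triglyceride, was lower at 28.2, 24.2 and 17.3 CPM in NASH GFP livers, against 56.8, 49.4 and 34.0 CPM in chow GFP livers (-0.97 ± 0.24, adjusted p = 0.0181). Its call was lost without NASH GFP replicate 2 (0.0517), without chow GFP replicate 1 (0.0647) and with no TMM factors (0.0735). Jpx, which activates Xist in the X inactivation centre of females and was measured here in males, fell by 1.22 on the log2 scale (adjusted p = 0.0219). Its call was lost without any 1 of the NASH GFP libraries or without chow GFP replicate 1 or 2, with log2 fold changes of -1.43 to -1.01 over the 6 fits.

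Fewer members rose on the diet, and several of them were near the floor of detection in chow GFP livers. Gm42047 was the most abundant of them, at 127, 53.9 and 98.4 CPM in NASH GFP livers, against 22.6, 14.0 and 16.5 CPM in chow GFP livers. Its log2 fold change was 2.43 ± 0.30 (adjusted p = 6.29e-04), and the other NASH groups averaged 92.0 to 119 CPM, so chow GFP livers stood apart from every NASH group. Gm19619 stood at 18.6, 18.7 and 8.13 CPM in NASH GFP livers, against 0.669, 1.49 and 1.45 CPM in chow GFP livers (3.71 ± 0.41, adjusted p = 3.59e-04). Gm33447 had 1.01, 1.39 and 2.96 CPM in NASH GFP livers, against 0.122, 0.149 and 0 CPM in chow GFP livers, where the 3 libraries held 4 counts in all (4.23 ± 0.80, adjusted p = 0.00556). The sizes for Gm33447 and for Gm40923 (3.92 ± 0.82) and Gm30692 (3.70 ± 0.77) are therefore imprecise. Snhg18, a snoRNA host gene, stood at 4.37, 4.46 and 3.61 CPM in NASH GFP livers, against 0.912, 0.671 and 0.759 CPM in chow GFP livers (2.43 ± 0.34, adjusted p = 0.00117). These 6 members kept their calls whichever library was left out. Gm17281 (2.76 ± 0.68, adjusted p = 0.0202) did not: it missed the threshold without NASH GFP replicate 1 (0.0654) or 2 (0.0802) and without chow GFP replicate 2 (0.0618) or 3 (0.0627).

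**Figure D3:**
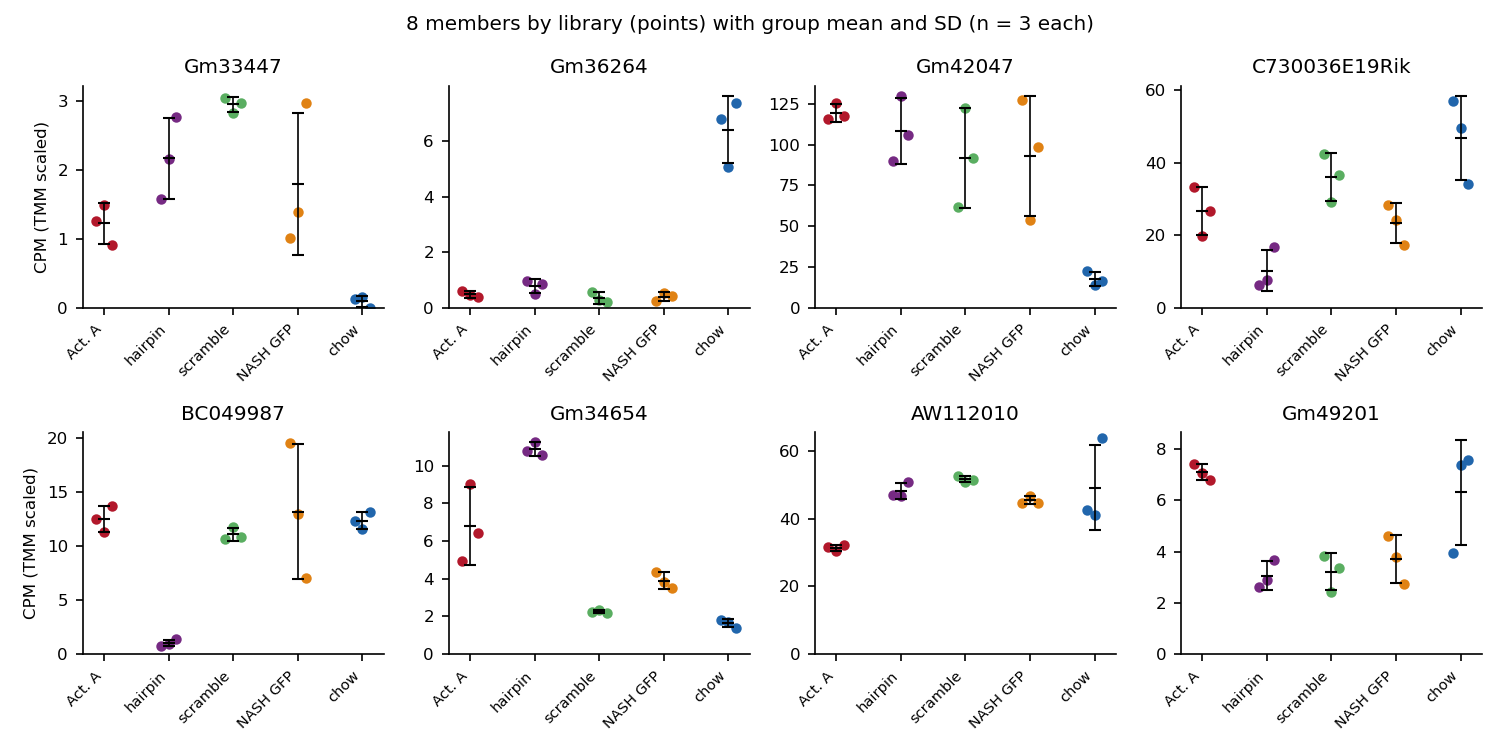
CPM by library for 8 members, with group mean and SD (n = 3 each). Gm36264 and Gm42047 separate the chow GFP livers from all NASH groups in opposite directions, BC049987 is near 1 CPM only in the hairpin livers, and AW112010 is lowest in NASH Activin A livers.

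Markers of other cells moved with the diet. All 10 macrophage and monocyte markers, 9 of 10 stellate and fibroblast markers and 6 of 7 lipid-associated macrophage markers were called higher, and 4 of 10 hepatocyte markers were called lower. Summed macrophage markers ran from 531 to 625 CPM in NASH GFP livers, against 163 to 180 CPM in chow GFP livers, and summed hepatocyte markers from 58816 to 70649 CPM, against 83197 to 120865 CPM. No marker of these lists was at 0 in either group. The part of cell makeup in the members' differences was not tested, and in bulk tissue fewer cells of a type and less RNA per cell cannot be told apart.

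Few members were called with Activin A. Against NASH GFP livers, 2 of 199 members tested were called in NASH Activin A livers, 1 higher and 1 lower (1.01%, against 5.52% of the 14598 genes tested; 1.66% of all genes were called higher and 3.86% lower). At an unadjusted p under 0.05 there were 23 (11.6%, against 20.1% of all genes). DESeq2 called 2 higher and 5 lower (3.5%, against 6.89%). The median log2 fold change was 0.02 for members and 0.00 for all genes. The summed level was 2420 ± 32.8 CPM in NASH Activin A livers and 2303 ± 204 CPM in NASH GFP livers (SD, n = 3 each; exact two-sided permutation p = 0.5). Gm36264 was not tested here because of its low counts. The member listed in RefSeq as a synonym of Acvr2b, 4930516B21Rik, stood at 1.36 ± 0.485 CPM in NASH Activin A livers and 1.04 ± 0.348 CPM in NASH GFP livers (adjusted p = 0.727). With that identity uncertain, these values are not a measure of the receptor gene. On the diet 4930516B21Rik was called lower, a call kept in 1 of 6 fits with a library left out (log2 fold changes of -1.74 to -1.28).

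The member called lower was AW112010, a transcript of activated mouse immune cells that was reported to encode a small protein in macrophages. It stood at 31.5, 30.3 and 32.2 CPM in NASH Activin A livers, against 44.7, 46.7 and 44.7 CPM in NASH GFP livers (log2 fold change -0.55 ± 0.09, edgeR adjusted p = 0.00811). Every NASH Activin A library lay below every library of the other 4 groups, whose lowest value was 41.1 CPM in a chow GFP liver. The call was lost without NASH Activin A replicate 2 (adjusted p = 0.0524) or replicate 3 (0.0566). The member called higher was Gm49201, at 7.42, 7.06 and 6.81 CPM in NASH Activin A livers, against 4.59, 3.78 and 2.74 CPM in NASH GFP livers (0.92 ± 0.23, adjusted p = 0.0469). It was lost without any 1 of the 3 NASH Activin A libraries (0.131 to 0.159), without NASH GFP replicate 2 (0.0938) and with no TMM factors (0.0702). Among macrophage and monocyte markers 9 of 10 were called lower, and their sum ran from 207 to 234 CPM in NASH Activin A livers, against 531 to 625 CPM in NASH GFP livers. On the diet, where those markers were higher, AW112010 stood at 45.4 ± 1.17 CPM in NASH GFP livers and 49.1 ± 12.7 CPM in chow GFP livers (adjusted p = 0.824). The part of macrophage content in the AW112010 difference was not tested.

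1810058I24Rik, the micropeptide gene also known as Stmp1, did not pass the edgeR threshold with Activin A. It stood at 110, 138 and 130 CPM in NASH Activin A livers, against 97.7, 85.6 and 56.3 CPM in NASH GFP livers (0.64 ± 0.18, adjusted p = 0.0781), and DESeq2 called it higher (0.00709). It also passed without NASH GFP replicate 1 (0.0461) or replicate 3 (0.0372) and with no filter on low counts (0.00796). Slc13a4, a sulfate transporter gene that ends 4461 bases from its end on the other strand, rose by 3.87 ± 0.22 (edgeR adjusted p = 6.94e-05), at 24.5 CPM on average in NASH Activin A livers and 1.66 CPM in NASH GFP livers.

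Of the members, 48 were called with the Gpnmb hairpin. Against NASH scramble livers, 31 members were called higher and 17 lower in NASH Gpnmb hairpin livers. That is 24% of the 200 tested, against 24.3% of the 14845 genes tested, so members were called about as often as all genes. By direction, 15.5% of members were called higher, against 12.2% of all genes, and 8.5% lower, against 12%. The median log2 fold change was 0.05 for members and 0.00 for all genes. Groups did not overlap for 70 members (35%), against 40.6% of all genes. The summed level was 3017 ± 106 CPM in NASH Gpnmb hairpin livers and 2792 ± 68.4 CPM in NASH scramble livers (SD, n = 3 each; exact two-sided permutation p = 0.1). Without TMM factors 22 were called higher and 19 lower, with medians of -0.06 for members and -0.11 for all genes. Calls numbered 17 higher and 7 lower without NASH scramble replicate 2, 17 higher and 9 lower without NASH scramble replicate 3, and 9 lower without NASH Gpnmb hairpin replicate 2. Of the 48 calls, 23 were kept whichever library was left out.

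The member that fell most was BC049987, at 0.788, 0.947 and 1.35 CPM in NASH Gpnmb hairpin livers, against 10.6, 11.7 and 10.9 CPM in NASH scramble livers. Its log2 fold change was -3.39 ± 0.21 (edgeR adjusted p = 7.65e-06), and the remaining groups averaged 12.4 to 13.2 CPM, so it was low in the hairpin livers alone. Treh, which encodes the sugar-cleaving enzyme trehalase, starts 995 bases away in the opposite direction and fell with it (-2.17 ± 0.33, adjusted p = 0.00137), at 1.36 CPM on average in NASH Gpnmb hairpin livers and 6.21 CPM in NASH scramble livers. C730036E19Rik fell to 6.30, 7.68 and 16.6 CPM in NASH Gpnmb hairpin livers, against 42.2, 29.0 and 36.7 CPM in NASH scramble livers (-1.79 ± 0.29, adjusted p = 0.00162). 1810058I24Rik stood at 47.3, 35.5 and 44.0 CPM in NASH Gpnmb hairpin livers, against 78.8, 74.7 and 72.8 CPM in NASH scramble livers (-0.81 ± 0.10, adjusted p = 3.97e-04), and Slc13a4 also fell (-1.42 ± 0.37, adjusted p = 0.0188). Mkln1os (-1.59 ± 0.35), which overlaps Mkln1 on the other strand, Gm11752 (-1.34 ± 0.32) and 1700001L05Rik (-0.68 ± 0.15) fell too. All 6 members named here kept their calls whichever library was left out, though Gm11752 missed the threshold in a fit of all 15 libraries (adjusted p = 0.0523).

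Among members that rose, Gm34654 stood at 10.8, 11.3 and 10.5 CPM in NASH Gpnmb hairpin livers, against 2.25, 2.34 and 2.18 CPM in NASH scramble livers (2.29 ± 0.16, adjusted p = 1.19e-05). Gm47818, on the same chromosome, rose by 2.50 ± 0.24. Both have Gclc, at 12551 and 41545 bases, which encodes the catalytic subunit of the first enzyme of glutathione synthesis, as their nearest coding gene, and Gclc itself rose by 0.28 ± 0.08 (adjusted p = 0.0315). Gm15611, 1078 bases from the peroxisomal carnitine acyltransferase gene Crot, stood at 12.1, 20.4 and 13.6 CPM in NASH Gpnmb hairpin livers, against 4.01, 2.73 and 2.85 CPM in NASH scramble livers (2.29 ± 0.23), while Crot rose by 0.65 ± 0.08 (adjusted p = 3.20e-04). 9430037G07Rik rose by 2.41 ± 0.21, Gm35696 by 2.18 ± 0.26, 9030616G12Rik by 1.33 ± 0.18 and 4732465J04Rik by 0.96 ± 0.11. These 7 members kept their calls whichever library was left out. Gm48199 (2.39 ± 0.58, adjusted p = 0.0137) lost its call without NASH scramble replicate 2 (0.0531) or NASH Gpnmb hairpin replicate 3 (0.0582).

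Of the abundant members with known roles, Norad (2900097C17Rik), which sequesters Pumilio proteins in the cytoplasm, rose by 0.30 ± 0.06 (adjusted p = 0.00684). It stood at 122, 121 and 118 CPM in NASH Gpnmb hairpin livers, against 100.4, 96.0 and 103 CPM in NASH scramble livers. The change was small and the groups did not overlap, but without TMM factors the call was lost (adjusted p = 0.0524). Cyrano (1700020I14Rik, Oip5os1), which triggers decay of miR-7, rose by 0.29 ± 0.08 (adjusted p = 0.0244), a call lost without any 1 scramble library (0.0614 to 0.078), without hairpin replicate 3 (0.0567), without TMM factors (0.128) and in a fit of all 15 libraries (0.115). Gm26917, whose end at chr17:39846341 lies just before the end, at 39846353, of a ribosomal RNA gene model on the other strand, rose by 1.07 ± 0.17 (adjusted p = 0.00142). Its libraries held 110, 200.8 and 161 CPM in NASH Gpnmb hairpin livers, against 74.3, 81.6 and 72.2 CPM in NASH scramble livers, and the ribosomal RNA model was at -0.93 ± 0.37 (adjusted p = 0.0954). Whether reads counted for Gm26917 stem from ribosomal RNA was not tested. Mir17hg, whose microRNAs are printed above, stood at 3.39, 3.10 and 3.73 CPM in NASH Gpnmb hairpin livers, against 1.81, 1.72 and 2.26 CPM in NASH scramble livers (0.84 ± 0.24, adjusted p = 0.0269). Its call was lost without any 1 scramble library (0.0559 to 0.104) and without hairpin replicate 1 (0.0501) or 3 (0.0672). Mature microRNAs were not measured. Tmem250-ps, which RefSeq classes as protein-coding, was called in none of the 3 comparisons and lay between 50.4 and 82.0 CPM in all 15 libraries.

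Markers moved with the hairpin as well. Called lower were 9 of 10 macrophage and monocyte markers and 8 of 10 stellate and fibroblast markers, and called higher were 5 of 10 hepatocyte markers. Other lists were less uniform. Of 7 lipid-associated macrophage markers 4 were called lower and 1 higher. That list includes Gpnmb, the target of the hairpin, so the level of Gpnmb here is not a reading of these cells. Called lower were also 2 of 5 Kupffer cell and 3 of 6 endothelial markers, and 0 of 6 biliary markers were called. Summed macrophage markers ran from 217 to 286 CPM in NASH Gpnmb hairpin livers, against 466 to 570 CPM in NASH scramble livers, and summed hepatocyte markers from 73290 to 77682 CPM, against 59188 to 70732 CPM. The part of cell makeup in the members' differences was not tested.

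Beside Irs2, which encodes an adaptor of the insulin receptor, lay 4 members on the same strand, 55985 to 102227 bases beyond the end of the gene. 3930402G23Rik stood at 2.73, 4.997 and 3.41 CPM in NASH Gpnmb hairpin livers, against 1.01, 0.706 and 0.673 CPM in NASH scramble livers. B930025P03Rik stood at 13.4, 16.7 and 18.9 CPM in NASH Gpnmb hairpin livers, against 6.09, 6.04 and 5.66 CPM in NASH scramble livers. All 4 were called higher with the hairpin and their groups did not overlap. Their log2 fold changes were 2.24 ± 0.33 for 3930402G23Rik, 0.78 ± 0.17 for Gm2814, 1.91 ± 0.31 for Gm45044 and 1.49 ± 0.14 for B930025P03Rik. Irs2 itself rose by 1.43 ± 0.09 (adjusted p = 1.03e-05), at 59.6, 64.4 and 63.0 CPM in NASH Gpnmb hairpin livers, against 20.4, 24.96 and 25.3 CPM in NASH scramble livers. None of the 4 was called for diet or Activin A, and neither was Irs2. The 4 members share 1 stretch of chromosome 8 and are not independent of each other.

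**Figure D4:**
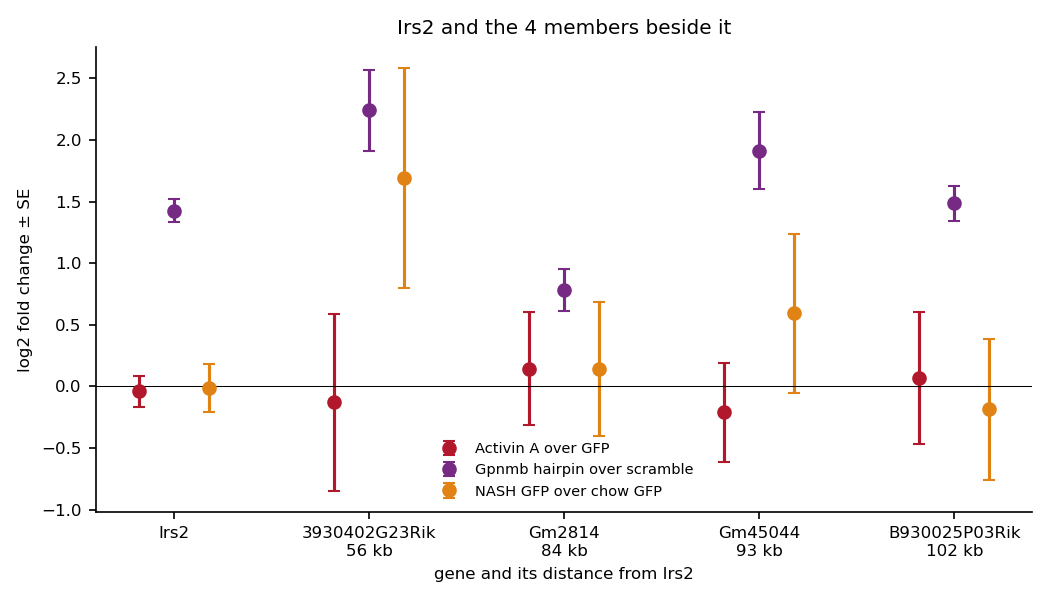
Log2 fold change with SE for Irs2 and the 4 members beside it, ordered by distance from Irs2 in kb, in the 3 comparisons. The hairpin values lie between 0.78 and 2.24 for all 4 members, while the SEs of the diet and Activin A values are wide.

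A nearest protein-coding gene could be tested beside 181 members for diet and 182 for the hairpin. For diet, 9 of 39 called members (23.1%) had a called neighbour, 8 of them in the same direction, against 13.4% of the 142 members that were not called. For the hairpin it was 17 of 42 (40.5%), 15 in the same direction, against 30.7% of 140. Across pairs, Pearson's r of the log2 fold changes was 0.38 for diet, 0.17 for Activin A and 0.42 for the hairpin, and 0.41, 0.21 and 0.54 among pairs within 5000 bases. Pairs share libraries and some share a neighbour, so these are descriptions. Of the diet pairs, Gm33447 rose together with Enc1, a gene for an actin-binding protein, which lies 123200 bases away (2.87 ± 0.21). Snhg18 rose with Sema5a, a semaphorin gene (1.54 ± 0.38, adjusted p = 0.0195), from the shared start region printed above. Gm30262 fell with Phlda1 (-2.31 ± 0.37, adjusted p = 0.00246) and 2310001H17Rik with Clec2d (-1.30 ± 0.30, adjusted p = 0.0155). 4632428C04Rik rose by 1.82 ± 0.40 beside Hes1, a repressor in the Notch pathway (1.12 ± 0.20, adjusted p = 0.00401), and its call was lost without NASH GFP replicate 2 (adjusted p = 0.0557) or chow GFP replicate 1 (0.0521).

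The diet and hairpin comparisons share no library, so their values can be set side by side. Of the members called for either, 12 were called in both, which is 30% of the 40 diet calls and 25% of the 48 hairpin calls. Over all genes tested in both comparisons, 46.6% of the diet calls and 31.5% of the hairpin calls were called in both. In 10 of the 12 the directions were opposite. AU020206, Gm19619, Gm30692 and Gm31600 rose on the diet and fell with the hairpin. Gm35696, Gm31583, Gm30301, AI463229, D930016D06Rik and 1810008I18Rik did the reverse. C730036E19Rik fell in both, and Gm34654 rose in both (diet 1.28 ± 0.31, adjusted p = 0.0177). Gm19619 and Gm35696 kept both calls whichever library was left out, and each of the other 10 lost at least 1 of its calls in at least 1 such fit. The diet call of Gm34654 was lost without NASH GFP replicate 1 (adjusted p = 0.0851) or 2 (0.0557) or chow GFP replicate 3 (0.0501), and the hairpin call of Gm30692 without NASH scramble replicate 2 (0.0602). The hairpin call of Gm31583 was lost without NASH scramble replicate 2 (0.106) or 3 (0.114) or hairpin replicate 3 (0.0637), and that of 1810008I18Rik in 5 of 6 fits (0.0586 to 0.193). The hairpin call of Gm30301 was kept in 0 of 6 such fits (log2 fold changes of 0.61 to 0.97). Over all 200 members Pearson's r between the fold changes was -0.23, against -0.50 over all genes, where 88.9% of 1113 genes called in both had opposite directions.

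**Figure D5:**
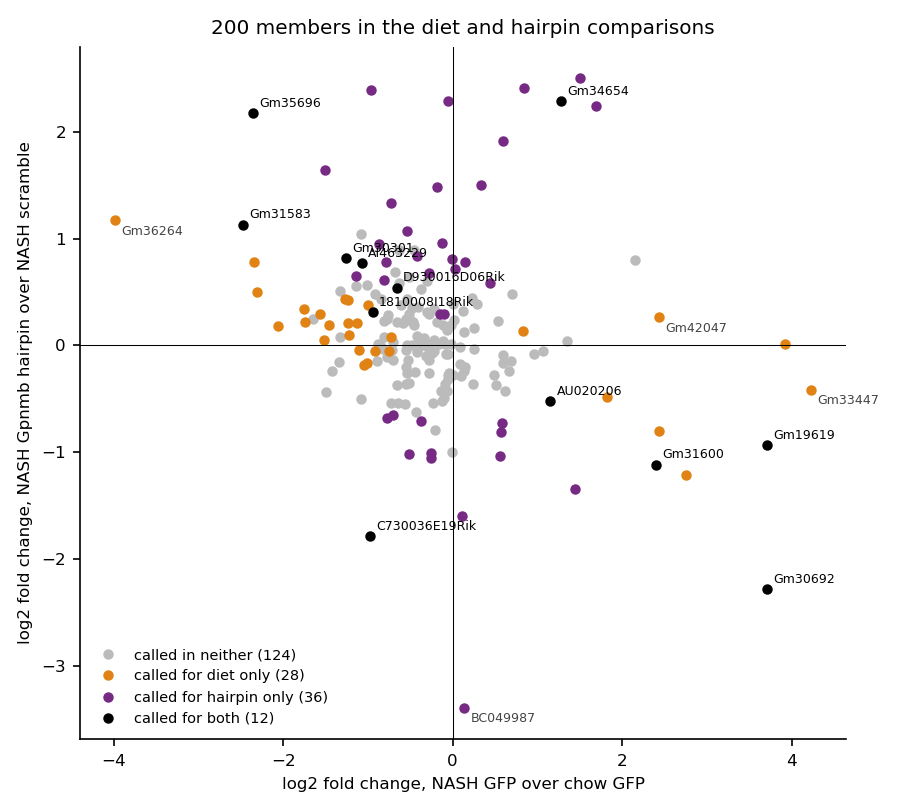
Each point is 1 of 200 members, with the log2 fold change of NASH GFP over chow GFP on the x axis and of NASH Gpnmb hairpin over NASH scramble on the y axis. The 12 members called in both are black and named, and 10 of them lie in the upper left or lower right part of the plot.

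Known groups of long noncoding RNAs were represented by few members, and their counts are given with the medians of all genes at -0.01 for diet and 0.00 for the other comparisons. Of 3 nuclear or Pumilio-binding members, Malat1, Neat1 and Norad, 0 were called for diet or Activin A. Norad alone rose with the hairpin (medians -0.24, -0.16 and 0.09 for diet, Activin A and hairpin). Malat1 was called lower on the diet when chow GFP replicate 3 was left out (log2 fold change -0.74, edgeR adjusted p = 0.0374). Of 5 members listed as snoRNA host genes, Snhg18 alone was called for diet and Epb41l4aos alone fell with the hairpin, by 0.65 on the log2 scale (adjusted p = 0.0471; medians -0.54, 0.08 and -0.37). The Epb41l4aos call was lost without any 1 scramble library (0.0945 to 0.143) and without hairpin replicate 1 (0.111) or 2 (0.102). Snhg6, Snhg12 and Snhg20 were called in none. The annotation places snoRNA genes inside 8 members, these 5 and also 9430037G07Rik, 2900076A07Rik and AC135964.1. Of these 3, 9430037G07Rik rose with the hairpin, with the values given above, and the others were called in none. Over the 8, 1 rose on the diet, and 1 rose and 1 fell with the hairpin (medians 0.04, 0.05 and -0.00). Of 3 members listed as microRNA host genes, Ftx, Lncpint and Mir17hg, only Mir17hg was called (medians -0.43, 0.12 and 0.35). The annotation places no microRNA gene inside Lncpint. The 6 members with microRNA genes inside them were Ftx, Mir17hg, Snhg20, E130102H24Rik, 2900076A07Rik and 6720427I07Rik, and of these too only Mir17hg was called (medians -0.36, 0.11 and 0.33). Lncpint, Neat1 and Pvt1, which are tied to p53 or growth control, gave no call (medians -0.24, -0.31 and -0.07). In the pair listed as immune related, AW112010 fell with Activin A and Neat1 was called nowhere (medians -0.16, -0.35 and -0.07). Of 9 members listed as liver enriched, 1 rose and 3 fell on the diet (median -0.78), 0 were called with Activin A (0.07), and 3 rose and 3 fell with the hairpin (-0.10). No member was in the mesenchymal list.

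Between the control vectors, NASH scramble against NASH GFP livers, 0 of 199 members were called by edgeR, against 0.324% of the 15103 genes tested (0.132% higher and 0.192% lower). At an unadjusted p under 0.05 there were 47 (23.6%, against 19.1% of all genes). DESeq2 called 6 (3.13%, against 5.16%). Without NASH GFP replicate 3 edgeR called 30 (15%, against 13.1%). Malat1 stood at 940, 1054 and 975 CPM in NASH scramble livers, against 664, 491 and 730 CPM in NASH GFP livers (0.63 ± 0.15, adjusted p = 0.0909). The groups did not overlap for Malat1. Differences between groups that carry different kinds of vector cannot be told apart from the vector.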

How the data were processed

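Total RNA of mouse liver was sequenced as 15 stranded, polyA-selected libraries, and raw counts per gene were deposited by the authors in 3 tables. Gene lengths and positions are other columns of those tables. Per the submitters' processing notes the build was GRCm38 (mm10). Which aligner, counter, strand setting and gene annotation were used is not given in the sources. The tables were joined by gene ID, with 0 for a gene missing from one. Members and lists were chosen with earlier results of these data known. Pairwise comparisons were fitted on all genes of their table with edgeR 4.0.16 in R 4.3.3 (quasi-likelihood, filterByExpr with a minimum count of 10, TMM, Benjamini-Hochberg). CPM used TMM factors over all 15 libraries. DESeq2 1.42.0, limma 3.58.1 (voom) and the other settings were alternatives. Library totals of 15276879 to 23467867 counts limit the precision at low counts. Standard errors and p-values rest on the spread between libraries of a group, which may not cover variation between animals. The fits were tested on simulated counts, with 1 fixed setting of spread for all genes and changes only in genes with more counts. That does not test the calls of members with low counts.

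Members were named by rule: the 12 with the most counts, the 6 highest and 6 lowest called fold changes per comparison among those whose groups did not overlap, called members of the lists, called members with a called neighbour (4 per comparison), and those at the edge of the choice. Gm48633, Jpx, Gm2814, Gm45044, 4930516B21Rik and members called in both the diet and hairpin comparisons were chosen after their values were seen. In the pairing check, deviations of libraries with the same number had correlations of -0.20 to 0.09.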

Additional observations from a re-analysis of the deposited data

How the results depend on the processing

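Members called lower on the diet (28) numbered 57 in 1 fit of all 15 libraries, 13 with library size only and 11 to 28 with a library left out. Those called higher (12) numbered 8 to 14 with a library left out. For Activin A, the 1 member called higher became 2 with DESeq2, 2 in 1 fit of all libraries, 0 with library size only, 3 with no filter on low counts and 0 to 5 with a library left out. The 1 called lower became 5, 4, 2, 6 and 0 to 3 under the same settings. For the hairpin, members called higher (31) numbered 18 and those called lower (17) numbered 9 in 1 fit of all libraries, and 17 to 28 higher and 7 to 14 lower with a library left out. Between the control vectors 0 became 6 with DESeq2, 6 with no filter and 0 to 30 with a library left out, and over 5 groups 99 became 85 to 105. With library size only, the difference in summed level was -215 CPM for diet (-739 with TMM) and 58.9 CPM for the hairpin (225 with TMM). With a library left out these differences were -952 to -471 CPM for diet, 5.99 to 207 CPM for Activin A (117 with all) and 185 to 286 CPM for the hairpin. Of 1664 gene-level values under alternatives, 1559 stayed on their side of the threshold, 72 fell below it, 33 passed it and 0 changed direction. These values cover 43 genes in 128 pairs of gene and comparison, including pairs that were not called to begin with. Of the calls themselves, 16 of 40 for diet, 23 of 48 for the hairpin and 0 of 2 for Activin A were kept whichever library was left out. The causes were not tested.

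Replicate numbers were not taken to pair the samples. Libraries with the same number had correlations of deviations from -0.20 to 0.09, and those with different numbers from -0.19 to 0.25. With 3 libraries per group, these correlations cannot show whether samples were paired. With the replicate number as a block, members called higher and lower numbered 10 and 17 for diet, 0 and 2 for Activin A, and 26 and 13 for the hairpin. Among the lower 100 members, which held 6.89% of counts, depth limits the precision of fold changes, and 1 of 200 was not tested for Activin A.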

Other observations

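Of the mesenchymal list, 7 genes were in the tables, and none was among the 200. By symbol, 98 of the 200 were Gm gene models, 67 RIKEN clones and 9 clone accessions, and 26 had another symbol. Ranking by mean CPM in place of summed counts would have replaced 2 of the 200. B and plasma cell markers summed to 55.9 to 60.2 CPM in NASH Activin A livers, against 15.0 to 36.3 CPM in NASH GFP livers, with 1 of 5 called higher.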
